A study of Xenopus tropicalis with 9 samples.

Results

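Cic knockdown embryos were compared directly with Fgf4 overexpressing embryos of *Xenopus tropicalis* by RNA-seq, so that each difference is between the treatments themselves. The comparison uses 6 of the 9 libraries of the series, 3 per treatment, chosen by their labels alone. All embryos were of the Nigerian strain and whole embryos were collected at early neurula stage 14. Fgf4 overexpressing embryos had received 5 pg of Cska-Fgf4, a plasmid in which a cytoskeletal actin promoter drives *fgf4* after the onset of zygotic transcription. Cic knockdown embryos had received mRNAs for a forward and a reverse TALEN, 1 ng of each, which together cut the *cic* exon that codes for the HMG box. Both treatments are mosaic in injected embryos. The treatment and the agent injected (plasmid DNA or nuclease mRNA) cannot be told apart, since a library with a single TALEN or an empty plasmid was not analysed here. The other 3 libraries came from water-injected embryos and are given as background. They entered no test other than an alternative fit of all 9 libraries.

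Fgf ligands bind receptor tyrosine kinases and signal through Ras and Erk. Cic is an HMG box protein that holds target genes silent until Erk phosphorylates it and relieves the repression. Fgf signalling in the frog embryo supports mesoderm formation and the growth of the trunk and tail. The direct comparison asks which genes respond to Fgf4 beyond the loss of Cic, and which respond to Cic TALENs beyond Fgf4. Genes that both treatments move alike cancel out in it.

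Values are the deposited TPM, a transcript abundance normalised for length and library that the authors rescaled between libraries, and differences are in log2(TPM + 0.5), Cic knockdown minus Fgf4. A negative difference therefore means a higher level in Fgf4 overexpressing embryos, and the scale understates the difference of genes with low TPM. Genes that averaged 1.5 TPM or more in either treatment were fitted with limma, with replicate number as a block. The sums of the 6 libraries ran from 871757 to 1134490, and the number of reads behind each value is unknown. On the first principal component of these libraries, which held 46.0% of the variance, replicate number accounted for a share (R2) of 0.949 and treatment for 0.0088. Every fixed tissue marker that the table lists for epidermis, neural plate, muscle, notochord, endoderm and neural crest was present in all 6 libraries, the lowest value being 6.13 TPM for *shh*. In whole embryos, fewer cells of a type and less RNA per cell cannot be told apart.

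Few genes separated the treatments. Genes were called at an unadjusted limma p of at most 0.01 and a 1.75-fold difference, and 159 of 13607 genes tested (1.17%) met both limits. An even spread of p would put 136 genes at or below 0.01, where 160 (1.18%) were found at any fold, and after Benjamini-Hochberg adjustment 0 genes passed 0.05. The lowest adjusted p was 0.710, which every called gene shares. At an unadjusted p under 0.05 there were 893 genes (6.56%). The calls were unequal in direction, with 129 genes higher in Cic knockdown embryos (0.948%) and 30 higher in Fgf4 overexpressing embryos (0.22%), while the median difference of all genes tested was -0.02. With replicate 2 left out the calls divided differently, with 328 higher in Cic knockdown (2.38% of genes tested) and 278 higher in Fgf4 embryos (2.01%), and 41 genes then had an adjusted p of at most 0.05.

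The control level gives each call a background. Of the 129 genes higher in Cic knockdown embryos, 82 had a control mean below both treatments, 37 had it between them and 10 above both, and for 94 (72.9%) the control lay nearer to Fgf4. Of the 30 genes higher in Fgf4 overexpressing embryos, 23 had the control between the treatments and for 24 it lay nearer to Cic knockdown. Of these genes, 25 of the 129 and 4 of the 30 passed the TPM filter only in the treatment where they were high, so they had to differ. Among the other 104 genes higher in Cic knockdown the control lay nearer to Fgf4 in 71 (68.3%), and among the other 26 higher in Fgf4 it lay nearer to Cic knockdown in 21 (80.8%). How often control lies nearer to either treatment was not counted over all genes tested. These counts and those of the lists below therefore have no background share. The position of control depended on single replicates in both directions. Without replicate 3 the control lay nearer to Fgf4 in 24.1% of calls higher in Cic knockdown, and without replicate 2 it lay nearer to Fgf4 in 60.8% of calls higher in Fgf4.

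The manipulated genes came first. *fgf4* stood at 1692, 168 and 95.4 TPM in Fgf4 libraries 1 to 3 and at 6.57, 4.40 and 5.48 TPM in the Cic knockdown libraries. All Fgf4 libraries were far above the others, which checks their labels, but the first held far more *fgf4* than the rest. The fitted difference was -5.67 with a standard error of 0.68, and *fgf4* was called under every setting that was tried other than an adjusted p. *cic* was at 16.2, 14.9 and 15.7 TPM in the Fgf4 libraries and at 14.7, 13.8 and 11.8 TPM in Cic knockdown libraries. The groups did not overlap, although the difference was -0.22 with a 95% interval from -0.78 to 0.35 and was not called. Reads counted over the whole gene do not show a cut in the coding sequence, so this level is no check of the TALENs.

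The immediate early genes of the Erk response were not called, and their differences lay on both sides of 0. *fos*, which codes for an AP-1 subunit and is an immediate early target of Erk, was at 34.1, 49.3 and 34.9 TPM in the Fgf4 libraries and at 33.6, 30.04 and 26.1 TPM in Cic knockdown libraries. Control libraries held 2.30 to 5.32 TPM, so *fos* was well above control in every treated library and lower in each Cic knockdown library than in any Fgf4 library. The difference of -0.38 (95% interval -0.95 to 0.19) was not called. *rasl11b*, a Ras-like GTPase gene, was at 37.2, 59.2 and 58.6 TPM in the Fgf4 libraries and at 81.8, 51.4 and 99.9 TPM in Cic knockdown libraries, against 14.2 to 24.3 TPM in control. Its difference of 0.56 (-0.16 to 1.28) was not called either, and the groups overlapped. Among the AP-1 partners, *fosl1* differed by 0.05 (-0.87 to 0.97), *atf3* by 0.23 (-0.43 to 0.88) and *jun* by 0.85 (-0.31 to 2.01). Of 27 AP-1 and immediate early genes tested, 0 were called, 16 were above 0 and the median was 0.05. The differences ran from -1.16, for *egr1* (given below), to 1.03.

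The feedback inhibitors of the pathway lay mostly on the Fgf4 side. Of 16 tested, 14 were below 0 against 52.2% of all genes, their median was -0.35, and 0 were called. *dusp6*, an Erk phosphatase that Erk itself induces, was at 308, 143 and 100.4 TPM in the Fgf4 libraries and at 94.7, 89.8 and 83.9 TPM in Cic knockdown libraries. The groups did not overlap and control libraries held 58.1 to 78.7 TPM. The difference was -0.87 (-1.62 to -0.13), and the pair with the highest *fgf4* showed the widest gap. The *fgf4* level and the replicate number cannot be told apart here. *spry2*, of the Sprouty inhibitors of receptor tyrosine kinase signalling, was at 161, 170 and 75.9 TPM against 61.4, 75.1 and 69.4 TPM, a difference of -0.90 (-1.60 to -0.19) in the same direction. *spry1* differed by -0.92, *spry4* by -0.97 and *dusp5* by -0.84. In all, 6 of the 16 had an unadjusted p under 0.05 toward Fgf4, where 1.68% of all genes did, and 0 had one toward Cic knockdown. In 5 of the 16 all 3 Fgf4 libraries were above all Cic knockdown libraries, where 2.09% of all genes had this. *egr1*, an immediate early zinc finger gene, was at 66.0, 16.0 and 11.9 TPM in the Fgf4 libraries and at 13.6, 8.83 and 8.88 TPM in Cic knockdown libraries, a difference of -1.16 (-2.08 to -0.24) that was not called. Its control libraries were lower, at 1.99 to 3.77 TPM.

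The secreted factors and Ets genes among the Fgf responders were not separated. *wnt8a*, a Wnt ligand of the ventral and posterior mesoderm, differed by -0.36 (-1.10 to 0.38) and turned to 0.05 without replicate 2. *frzb*, a secreted Wnt antagonist, was at 94.4, 114 and 25.2 TPM in the Fgf4 libraries and at 203, 110 and 54.3 TPM in Cic knockdown libraries, all above the 7.65 to 18.6 TPM of control. The difference of 0.71 (0.01 to 1.41) leaned toward Cic knockdown, and the groups overlapped. *adamts1*, a secreted metalloproteinase gene, differed by 0.42 (-0.63 to 1.46) and *gdf3*, a TGF-beta ligand gene, by -0.61 (-1.51 to 0.29). Of the Pea3 group of Ets factors, *etv1* differed by -0.40 (-1.02 to 0.22) and *etv4* by -0.27 (-0.87 to 0.33). Among 12 Fgf ligand genes tested, *fgf4* was called and the other 11 were not.

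**Figure D1:**
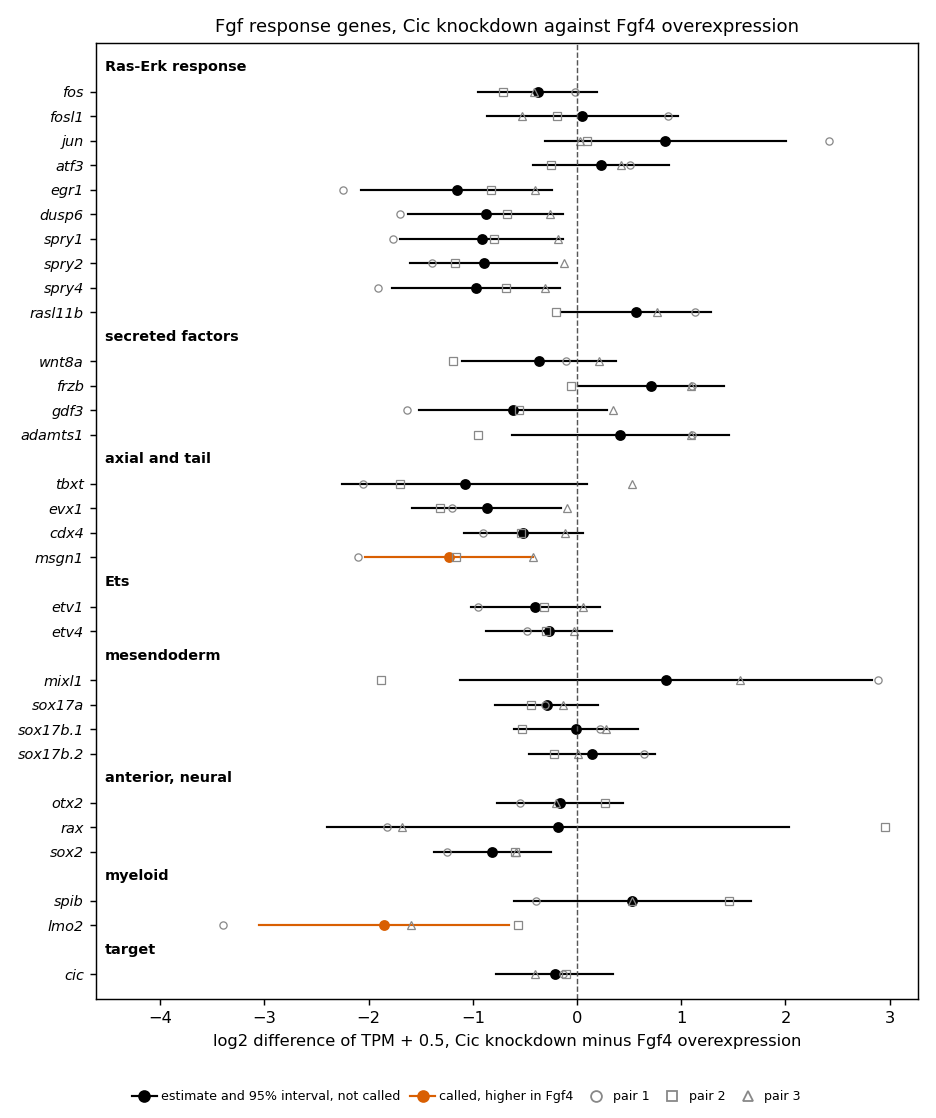
Log2 difference of TPM + 0.5 (horizontal axis), Cic knockdown minus Fgf4 overexpression, for genes of the Fgf response and *cic*. Filled points are limma estimates with 95% intervals, orange where called higher in Fgf4, and open symbols are the 3 replicate pairs. *fos* lies at -0.38 with an interval that spans 0, *dusp6* and the Sprouty genes lie between -0.97 and -0.87, and only *msgn1* (-1.23) and *lmo2* (-1.85) are called.

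Genes of the posterior mesoderm and tailbud mostly lay on the Fgf4 side, with 34 of 40 tested below 0 where 52.2% of all genes were and a median of -0.60, and 1 was called, as were 0.22% of all genes. That gene was *msgn1*, a bHLH regulator of presomitic mesoderm, at 616, 253 and 414 TPM in the Fgf4 libraries and at 143, 113 and 309 TPM in Cic knockdown libraries. Each Cic knockdown library was below the Fgf4 library of its number, while the groups overlapped. The difference was -1.23 with a standard error of 0.34, and the call was lost in 9 of the settings tried, among them the fits without the replicate block, without replicate 1 and without replicate 2. *tbxt*, the Brachyury gene of mesoderm and notochord, was at 273, 205 and 75.2 TPM in the Fgf4 libraries and at 65.3, 62.8 and 108 TPM in Cic knockdown libraries, where control had 41.6 to 77.2 TPM. Pairs 1 and 2 had more *tbxt* with Fgf4 and pair 3 had less, so that the difference of -1.08 (-2.25 to 0.10) was not called. *evx1*, a homeobox gene of the tailbud, differed by -0.87 (-1.58 to -0.16) with groups that did not overlap, and *cdx4*, an upstream regulator of Hox genes, by -0.52 (-1.09 to 0.05). Toward Fgf4, 10 of the 40 had an unadjusted p under 0.05, where 1.68% of all genes did, and toward Cic knockdown 0 did. In 8 of the 40 the Fgf4 libraries were all above the Cic knockdown libraries, where 2.09% of all genes had this. Of the 40, 1 passed the TPM filter only in Fgf4 embryos. Among the other 39, 33 were below 0 and the median was -0.59.

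Hox genes, which give cells their position along the head to tail axis, made up 10 of the 30 calls toward Fgf4. The differences were larger in the more posterior paralog groups. In groups 9 to 13, 7 of 11 genes tested were called toward Fgf4, as were 0.22% of all genes. The 11 were below 0, with a median of -1.41, but 3 of them passed the TPM filter only in Fgf4 embryos, where they were high. The other 8 held 6 of the calls and had a median of -1.42. In groups 5 to 8, 3 of 11 were called and all 11 were below 0, with a median of -0.96. In groups 1 to 4, 0 of 12 were called, 9 were below 0 and the median was -0.37. Within pairs 1 to 3 that median was -0.43, 0.27 and -1.02. Toward Cic knockdown 0 Hox genes were called.

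*hoxc11* was at 78.8, 8.34 and 18.6 TPM in the Fgf4 libraries, 13.2, 4.12 and 6.16 TPM in Cic knockdown libraries and 2.43 to 7.28 TPM in control. The Fgf4 library was the higher of every pair, and the difference was -1.66 with a standard error of 0.35, or 3.16-fold. *hoxd10* was at 38.3, 6.19 and 22.8 TPM against 8.399, 3.32 and 3.16 TPM, a difference of -1.87 with a standard error of 0.39. Control libraries held 4.28 to 14.7 TPM of *hoxd10*, and their mean lay between the treatments. Among the middle groups, *hoxb7* was at 134, 38.4 and 81.8 TPM with Fgf4 and at 38.0, 26.1 and 24.2 TPM with Cic knockdown, which left a gap between the groups. *hoxd13* differed by -1.51, but with a Cic knockdown mean of 1.45 TPM it passed the TPM filter only in Fgf4 embryos, so it had to differ. *hoxa11* differed by -1.48, *hoxc10* by -1.43, *hoxd9* by -1.41 and *hoxc9* by -1.23, with *hoxd8* at -1.37 and *hoxc6* at -1.30. In contrast to these, *hoxb1*, an anterior gene of the hindbrain, was at 9.91, 22.4 and 12.2 TPM with Fgf4 and at 30.5, 34.3 and 18.6 TPM with Cic knockdown. That difference of 0.92 (0.23 to 1.61) was on the other side and was not called. *hoxa7* (-0.86, -1.70 to -0.03) and *hoxb9* (-1.12, -1.91 to -0.33) missed the limits.

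Pair 2 carried little of the Hox difference. The median of groups 9 to 13 was -1.77 in pair 1, -0.66 in pair 2 and -1.52 in pair 3, and that of groups 5 to 8 was -1.45, -0.00095 and -1.53. Without replicate 1 or without replicate 3, 0 genes of either set were called, and without replicate 2 there were 8 calls in each, where 2.01% of all genes were called toward Fgf4. Without the replicate block 0 were called in either set. When each library was rescaled to a common sum 2 and 1 were called, where 0.0806% of all genes were called toward Fgf4. The 11 genes of groups 9 to 13 stayed below 0 under every one of these settings that tested them.

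**Figure D2:**
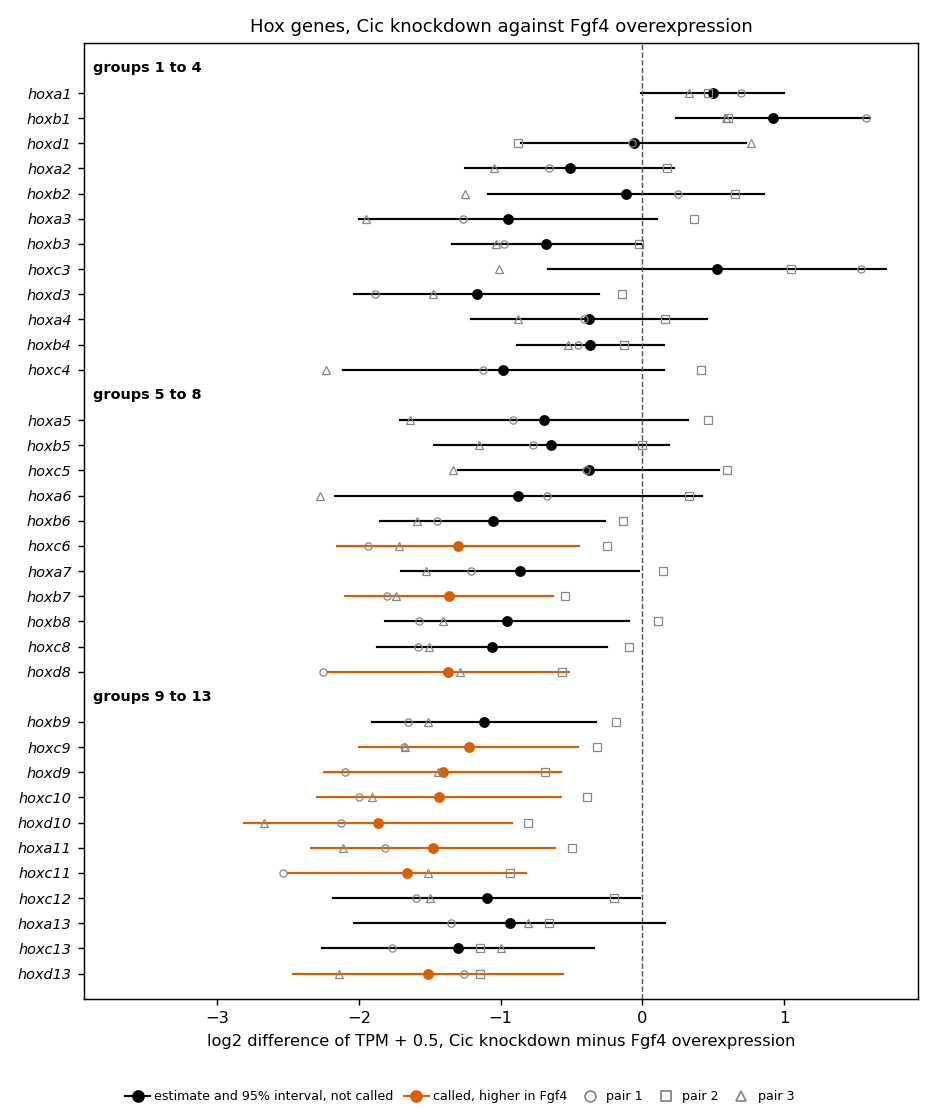
Log2 difference of TPM + 0.5 (horizontal axis), Cic knockdown minus Fgf4 overexpression, for the 34 Hox genes tested, ordered by paralog group. Filled points are limma estimates with 95% intervals, orange where called, and open symbols are the 3 replicate pairs. The 10 called genes lie in groups 6 to 13 and the squares of pair 2 sit nearest to 0 for most genes.

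Skeletal muscle genes followed the same division between pairs. The 28 tested were below 0, where 52.2% of all genes were, and their median was -1.09, but 0 were called and the pairs disagreed. Of the 28, 4 passed the TPM filter only in Fgf4 embryos. The other 24 were all below 0, with a median of -1.05. The median was -1.42 in pair 1, 0.47 in pair 2 and -2.48 in pair 3. *actc1*, a sarcomeric actin gene, was at 4947, 772 and 3907 TPM in the Fgf4 libraries and at 1529, 1147 and 1062 TPM in Cic knockdown libraries. *casq2*, a calcium store protein of muscle, was at 45.7, 3.42 and 39.6 TPM against 7.298, 2.69 and 1.95 TPM, a difference of -2.30 (-3.87 to -0.73). The second Fgf4 library was low in both genes. The summed level of all listed muscle genes was 12095, 2103 and 11623 TPM with Fgf4, 3906, 3067 and 3042 TPM with Cic knockdown and 5712, 2879 and 8503 TPM in control, so the replicate 2 library was the lowest in control as well. Without replicate 2, 20 of the 28 were called toward Fgf4, as were 2.01% of all genes. For 26 of the 28 the control mean lay nearer to Fgf4 than to Cic knockdown.

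*lmo2*, a transcriptional cofactor of blood and vessel precursors, was at 775, 63.1 and 130 TPM in the Fgf4 libraries and at 73.3, 42.5 and 42.8 TPM in Cic knockdown libraries. The first Fgf4 library was far above the rest, and the difference was -1.85 with a standard error of 0.50. The call was lost in 7 of the settings tried, among them the fits without the replicate block, without replicate 1 and without replicate 3. Of 16 myeloid, blood and vascular regulators tested, 1 was called toward Fgf4, as were 0.22% of all genes. The other 15 were not called, among them *spib*, an Ets factor of primitive myeloid cells, at 0.53 (-0.60 to 1.66). *spib* was far below its control level of 19.8 to 44.0 TPM in every treated library, where it ran from 0.79 to 6.29 TPM.

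The remaining named genes higher with Fgf4 belong to no list. *avp*, which codes for the vasopressin precursor, was at 57.5, 33.4 and 34.4 TPM in the Fgf4 libraries and at 18.9, 6.002 and 10.5 TPM in Cic knockdown libraries. The groups did not overlap, control lay at 9.44 to 16.1 TPM, and the difference was -1.88 with a standard error of 0.26, or 3.68-fold. *avp* and *fgf4* kept their calls in every setting other than an adjusted p. *fam195a* was at 14.6, 7.55 and 43.5 TPM against 4.01, 2.82 and 14.2 TPM (difference -1.54), with control at 3.17, 3.52 and 28.2 TPM. *smc6*, of a chromosome maintenance complex, was at 47.1, 16.3 and 14.8 TPM against 16.0, 10.2 and 7.60 TPM (difference -1.03), with control at 10.6 to 11.9 TPM. *ankrd37* varied more among replicate numbers than between treatments, at 47.7, 282 and 160 TPM with Fgf4 and 12.45, 201 and 22.4 TPM with Cic knockdown (difference -1.73). Its control libraries were at 22.5, 431 and 320 TPM, with a mean above both treatments. The call of *fam195a* was lost without the replicate block. At the 1.75-fold limit, those of *smc6* and *ankrd37* were lost in 6 and 7 settings. Among these were the fits without the block, without replicate 1, without replicate 3, with all 9 libraries and with rescaled libraries. At 2.04-fold, *smc6* also fell below the stricter fold limit of 2.24.

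In the opposite direction, 8 of the 129 called genes belonged to a list of oocyte and maternal genes. Maternal mRNAs are loaded into the egg, are translated during maturation and cleavage, and are normally degraded around the onset of zygotic transcription. Of 54 oocyte and maternal genes tested, 8 were called higher in Cic knockdown embryos, as were 0.948% of all genes, and 0 higher in Fgf4 embryos. Their median was 0.56, with 43 above 0 where 47.8% of all genes were. Of the 54, 4 passed the TPM filter only in Cic knockdown embryos and 1 only in Fgf4 embryos, and the other 49 held the 8 calls and had a median of 0.50. Higher counts were found without replicate 2 (20) and lower counts without replicate 1 (4) and without replicate 3 (2). Of all genes, 2.38%, 0.199% and 2.93% were called higher in Cic knockdown in these fits, in that order.

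*ccnb1*, cyclin B1 of the mitotic kinase, was at 2.81, 32.9 and 9.16 TPM in the Fgf4 libraries and at 135, 84.5 and 173 TPM in Cic knockdown libraries. Control held 1.88 to 6.55 TPM, and the lowest Cic knockdown library was above the highest Fgf4 library. The difference was 3.62 with a standard error of 0.69, or 12.3-fold. *ccna1*, the cyclin A of meiosis and early cleavage, was at 3.11, 17.1 and 23.1 TPM against 125, 67.4 and 87.4 TPM, a difference of 2.99 with a standard error of 0.63. Again the groups were far apart, and *ccna1* kept its call in every setting other than an adjusted p. *wee2*, an oocyte kinase that restrains Cdk1, was at 2.44, 15.2 and 8.65 TPM against 51.1, 30.4 and 56.3 TPM (difference 2.58). *spdyc*, a Speedy family activator of Cdk, was at 0.94, 7.52 and 2.68 TPM against 26.4, 17.3 and 30.8 TPM (difference 2.89). Most other cell cycle genes tested were not called. Of 53 Cdk, cyclin and mitosis genes tested, *ccnb1*, *ccna1* and *wee2* were called, where 0.948% of all genes were called higher in Cic knockdown. *ccna1* and *wee2* are counted among the called oocyte and maternal genes as well, while *ccnb1* and *spdyc* are not on that list. Of the 53, 33 were below 0 where 52.2% of all genes were, and the median was -0.06.

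*h1foo*, the linker histone of the oocyte, was at 4.51, 27.5 and 15.4 TPM in the Fgf4 libraries and at 71.2, 46.1 and 206 TPM in Cic knockdown libraries. *btg4*, an adaptor for the deadenylation of maternal mRNA, was at 1.08, 6.07 and 2.79 TPM against 18.9, 15.0 and 30.7 TPM. *cpeb1*, which controls cytoplasmic polyadenylation, was at 0.31, 4.55 and 1.72 TPM against 21.4, 10.4 and 18.6 TPM. In each of these the groups did not overlap and the second Fgf4 library was the highest of its group. Their differences were 2.76, 2.70 and 2.99 in that order. *velo1*, whose RNA localises to the vegetal cortex of the *Xenopus* oocyte, differed by 2.75, *rnf138* by 1.91 and *rbpms2*, an RNA-binding protein gene of the germ plasm, by 1.34. The calls of *ccnb1*, *wee2*, *spdyc*, *btg4* and *cpeb1* were lost without replicate 3, where their differences were 3.35, 2.55, 2.69, 2.43 and 2.93. Those of *h1foo*, *velo1*, *rnf138* and *rbpms2* were lost without replicate 1 and without replicate 3, and those of *rnf138* and *rbpms2* also without the replicate block and with a constant prior.

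Other egg genes leaned the same way without a call. *mos*, the meiotic kinase of the Mapk pathway, was at 2.43, 5.19 and 3.15 TPM with Fgf4 and at 10.1, 7.53 and 9.57 TPM with Cic knockdown, a difference of 1.27 (0.42 to 2.12). *dnd1*, a germ plasm gene, was at 7.03, 34.9 and 5.495 TPM against 36.9, 34.1 and 33.3 TPM, a difference of 1.59 (0.39 to 2.80). The second Fgf4 library reached the Cic knockdown level of *dnd1*. Other members were nearer to 0, such as *zp4*, of the egg coat, at 0.22 (-0.54 to 0.99) and *ddx4*, the vasa gene of germ cells, at -0.09 (-0.59 to 0.40). Summed over the list, the level was 986 to 1721 TPM in Fgf4 libraries, 1568 to 1940 TPM in Cic knockdown libraries and 1039 to 1303 TPM in control, and the highest Fgf4 sum was that of library 2. Within pairs the median was 0.82, -0.09 and 1.06 for pairs 1 to 3. For 45 of the 54 genes the control mean lay nearer to Fgf4. At a single stage, RNA kept from the egg and new transcription of the same genes cannot be told apart. The part of egg RNA in these and other differences was not tested.

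**Figure D3:**
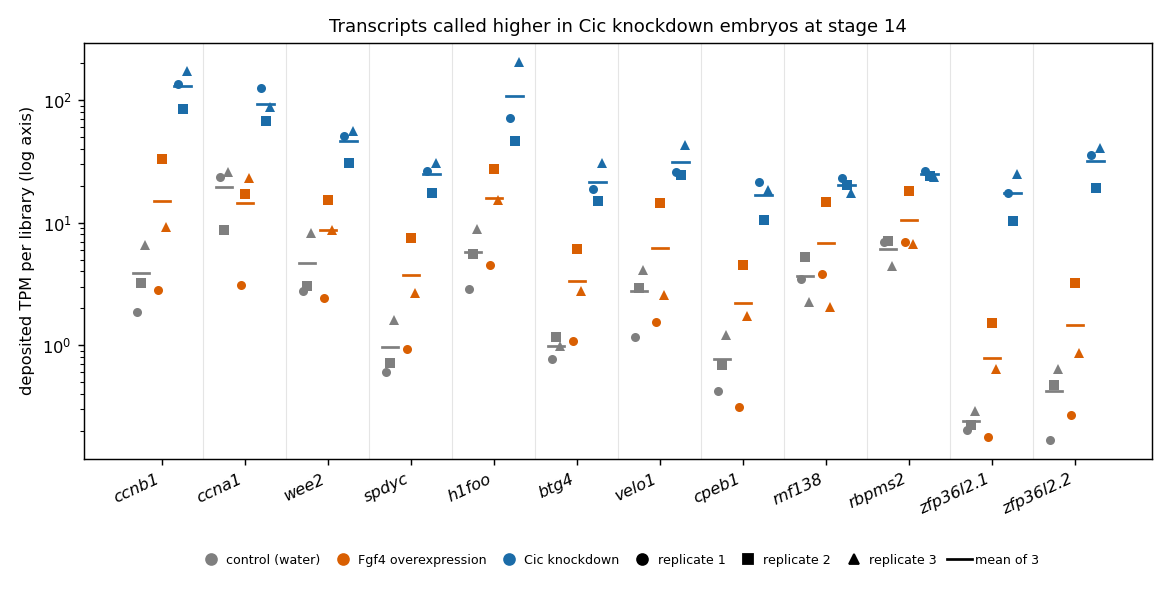
Deposited TPM per library (log axis) for 12 transcripts called higher in Cic knockdown embryos, by condition (colour) and replicate number (symbol), with bars at the mean of 3 libraries. Cic knockdown libraries lie above all Fgf4 libraries for each gene, and the square of Fgf4 library 2 is above the other Fgf4 libraries for all but *ccna1*.

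The smallest p among genes with a symbol and higher in Cic knockdown embryos belonged to *zfp36l2.1* and *zfp36l2.2*, which code for CCCH zinc finger proteins of the family that brings about mRNA decay. *zfp36l2.1* was at 0.18, 1.52 and 0.64 TPM in the Fgf4 libraries and at 17.6, 10.4 and 24.8 TPM in Cic knockdown libraries. *zfp36l2.2* was at 0.27, 3.24 and 0.86 TPM against 35.3, 19.1 and 40.8 TPM. Both were nearly silent in control (0.17 to 0.64 TPM over the pair of genes), and their groups were far apart. Their differences were 3.88 (2.66 to 5.09) and 4.28 (2.85 to 5.72), and both kept their calls in every setting other than an adjusted p. With Fgf4 means of 0.78 and 1.46 TPM, both passed the TPM filter only in Cic knockdown embryos, so they had to differ. Their names mark them as copies, so reads may have been divided between them and the level of each is uncertain. *zfp36l2*, listed as a separate gene, was at 12.3 to 32.2 TPM with Fgf4 and 12.51 to 22.6 TPM with Cic knockdown and differed by -0.34 (-0.92 to 0.24).

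Other genes that led this direction had varied roles. *mir34a*, the gene of a microRNA precursor, was at 19.7, 24.5 and 20.3 TPM with Fgf4 and at 42.6, 92.1 and 101 TPM with Cic knockdown. One control library listed it at 0 and the others at 18.6 and 36.5 TPM. The difference was 1.76 with a standard error of 0.28, and the call was lost in a fit of all 9 libraries. *sox7*, a SoxF factor of endoderm and vessels, was at 3.28, 8.42 and 11.5 TPM against 24.7, 29.96 and 26.9 TPM, with control at 16.4 to 23.5 TPM. Here control lay close to Cic knockdown, and the difference of 1.90 (1.08 to 2.72) kept its call in every setting other than an adjusted p. *tdgf1.1*, which codes for a Cripto co-receptor of Nodal ligands, was at 0.08, 2.29 and 1.15 TPM against 10.7, 6.97 and 10.2 TPM. It was the gene called out of 30 of endoderm and mesendoderm tested, where 0.948% of all genes were called in this direction. With a Fgf4 mean of 1.17 TPM, *tdgf1.1* passed the TPM filter only in Cic knockdown embryos, so it had to differ. Of the 28 list genes that passed in both treatments, 0 were called. *rpain* (1.52), *immp1l* (1.77), *khdrbs2* (2.15) and *ssx2ip* (1.38), a centrosomal protein gene, completed the leading genes.

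Genes of the DNA damage response, through which cells arrest, repair or die, lay mostly on the Cic knockdown side. Of 43 tested, 3 were called higher in Cic knockdown embryos, as were 0.948% of all genes, and 0 in Fgf4 embryos. Of the 43, 32 were above 0 where 47.8% of all genes were, and the median was 0.36. *sesn1*, a stress-induced regulator of Tor signalling, was at 2.79, 4.47 and 6.65 TPM in the Fgf4 libraries and at 26.7, 13.02 and 14.5 TPM in Cic knockdown libraries. *tnfrsf10b*, a death receptor gene, was at 3.90, 8.68 and 10.9 TPM against 26.7, 18.4 and 31.1 TPM. In both the groups were apart and the control mean (libraries at 1.33 to 5.87 TPM over both genes) lay below both treatments, with differences of 1.85 and 1.71. *spata18*, a gene of mitochondrial quality control, was at 5.89, 8.93 and 22.5 TPM against 49.99, 50.3 and 25.9 TPM. Control held 26.2 to 71.2 TPM of *spata18*, so here Fgf4 libraries stood below control rather than Cic knockdown above it. The call of *spata18* was lost in 8 settings, without replicate 1 and without replicate 2 among them.

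Several other well known genes of the damage response were not called, and those named here lay above the list median of 0.36. Of the 43 tested, 11 were below 0, the lowest at -0.51. *fas*, a death receptor gene, differed by 1.56 (0.48 to 2.64), *plk2* by 1.77 (0.54 to 3.00), *mdm2*, which codes for a ubiquitin ligase, by 1.09 (0.24 to 1.95), *ccng1* by 1.33 (0.32 to 2.34) and *cdkn1a*, the p21 inhibitor gene, by 1.37 (0.25 to 2.49). *ccng1* was at 116, 471 and 124 TPM with Fgf4 and at 620, 509 and 346 TPM with Cic knockdown, against 45.6 to 119 TPM in control. *mdm2* was at 45.9, 127 and 47.0 TPM against 151, 130 and 137 TPM, with control at 44.4 to 52.8 TPM. In both genes the second Fgf4 library came close to the Cic knockdown libraries or lay among them. Toward Cic knockdown 15 of the 43 had an unadjusted p under 0.05, where 4.88% of all genes did. In 9 of the 43 all 3 Cic knockdown libraries were above all Fgf4 libraries, where 4.39% of all genes had this. Without replicate 1, 0 of the list were called, where 0.199% of all genes were called higher in Cic knockdown. Without replicate 2 there were 8, where 2.38% of all genes were.

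Regulators of ciliated cells and epidermis were a further group on the Cic knockdown side. Multiciliated cells of the frog epidermis beat fluid over the skin, and Mcidas, Ccno and Foxj1 act in their precursors. Of 35 epidermal and ciliated cell regulators tested, 4 were called higher in Cic knockdown embryos, as were 0.948% of all genes, and 0 in Fgf4 embryos. Of the 35, 28 were above 0 where 47.8% of all genes were, and the median was 0.68. The other 7 were below 0, and the differences of the list ran from -1.74 to 2.89. Of the 35, 1 passed the TPM filter only in Cic knockdown embryos. The other 34 held the 4 calls, with 27 above 0 and a median of 0.66. *mcidas*, which starts the multiciliated programme, was at 1.31, 11.7 and 41.9 TPM in the Fgf4 libraries and at 19.1, 33.7 and 82.7 TPM in Cic knockdown libraries. *ccno*, needed for centriole multiplication, was at 3.42, 20.2 and 37.8 TPM against 30.1, 35.4 and 83.2 TPM. In both genes each Cic knockdown library exceeded the Fgf4 library of its number while the groups overlapped, and the first Fgf4 library was the lowest. Library 1 was also the lowest of its group in Cic knockdown and in control. The differences were 1.97 with a standard error of 0.47 and 1.63 with a standard error of 0.43. The call of *mcidas* was lost in 3 settings and that of *ccno* in 7, in both without the replicate block. *foxj1.2* differed by 1.12 and *tp73*, which has a role in ciliogenesis in mammals, by 1.72. Their calls were lost in 7 and 9 settings, in both without the replicate block and without replicate 1. At 2.17-fold, *foxj1.2* also fell below the stricter fold limit of 2.24. For 25 of the 35 the control mean lay nearer to Cic knockdown. *mcidas* stood at 25.6 to 52.0 TPM in control and *ccno* at 32.7 to 44.2 TPM, so Fgf4 libraries 1 and 2 were below control in both.

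*tp63*, the p63 gene of epidermal stem cells, was at 7.45, 14.6 and 64.6 TPM in the Fgf4 libraries and at 57.4, 60.6 and 73.3 TPM in Cic knockdown libraries, where control had 74.6 to 106 TPM. The third Fgf4 library was near the Cic knockdown level, and the difference of 1.69 (0.52 to 2.85) was not called. *foxi1*, the master regulator of ionocytes, was at 1.76, 24.3 and 96.8 TPM against 52.4, 44.0 and 219 TPM, a difference of 2.19 (0.54 to 3.84). *ubp1*, an ionocyte regulator in *Xenopus*, was at 1.24, 12.1 and 59.2 TPM against 25.6, 35.5 and 97.3 TPM, a difference of 2.05 (0.67 to 3.43). In all of these the Fgf4 library with the most *fgf4* (1692 TPM) had the lowest level and that with the least *fgf4* (95.4 TPM) the highest. The *fgf4* level and the replicate number cannot be told apart in these libraries. In Cic knockdown, *tp63*, *foxi1* and *ubp1* were also highest in replicate 3, while control *tp63* was lowest there. The part of the *fgf4* level in this spread was not tested. Calls in this list depended on the libraries and the model. There were 0 without the replicate block, 1 without replicate 1, 8 without replicate 2 and 10 without replicate 3. Of all genes, 0.632%, 0.199%, 2.38% and 2.93% were called higher in Cic knockdown in these fits, in that order.

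Axonemal genes, the parts that make cilia move, were taken by name (*dnah*, *dnai*, *dnal*, *dnaaf*, *cfap*, *rsph*, *tekt* and *drc* genes) after the values above had been seen. Of 55 tested, 54 were above 0 where 47.8% of all genes were, and the median was 0.75, but 0 were called in either direction. Of the 55, 6 passed the TPM filter only in Cic knockdown embryos. Of the other 49, 48 were above 0 and the median was 0.72. *tekt2*, a tektin of the axoneme, was at 5.78, 7.40 and 41.97 TPM in the Fgf4 libraries and at 19.7, 21.5 and 45.7 TPM in Cic knockdown libraries. *dnali1*, a dynein chain gene, was at 8.95, 16.3 and 23.4 TPM against 22.8, 29.9 and 34.4 TPM, and *rsph1*, a radial spoke gene, at 7.17, 7.36 and 26.2 TPM against 16.0, 16.6 and 35.5 TPM. Their differences were 1.09, 0.90 and 0.89, and in pair 3 the treatments were close for *tekt2*. The median of the list was 1.05, 1.12 and 0.14 in pairs 1 to 3. For 51 of the 55 genes the control mean lay nearer to Cic knockdown. The summed level was 398 to 892 TPM in Fgf4 libraries, 600 to 973 TPM in Cic knockdown libraries and 520 to 961 TPM in control.

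**Figure D4:**
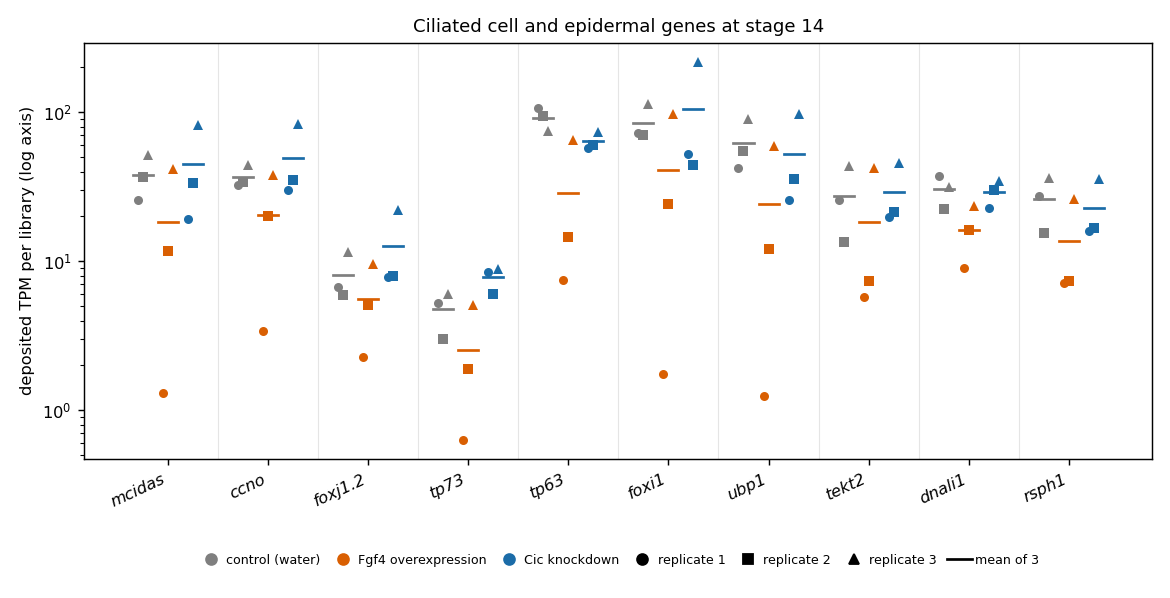
Deposited TPM per library (log axis) for 10 ciliated cell and epidermal genes, by condition (colour) and replicate number (symbol), with bars at the mean of 3 libraries. Fgf4 library 1 is the lowest library for every gene shown and Fgf4 library 3 lies among the control libraries for all but *tp63*.

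Regulators of mesendoderm and the anterior neural plate showed no call other than *tdgf1.1*, which passed the TPM filter only in Cic knockdown embryos. *sox17a*, an endoderm specifier, was at 290 to 390 TPM with Fgf4 and 263 to 287 TPM with Cic knockdown, above 150 to 261 TPM in control, with a difference of -0.29 (-0.79 to 0.20). Its near copies *sox17b.1* and *sox17b.2*, whose reads may have been divided between them, differed by -0.01 (-0.60 to 0.58) and 0.14 (-0.46 to 0.75). *mixl1*, a mesendoderm homeobox gene, ranged from 1.66 to 33.6 TPM with Fgf4 and from 8.77 to 19.8 TPM with Cic knockdown, and its interval of -1.12 to 2.83 leaves the direction unresolved. *otx2*, a head gene, was at 15.7, 35.4 and 42.3 TPM with Fgf4 and at 10.6, 42.7 and 36.6 TPM with Cic knockdown, below 65.8 to 84.5 TPM in control. The treatments overlapped and the difference was -0.16 (-0.76 to 0.44). *rax*, of the eye field, was at 3.12, 1.198 and 13.5 TPM against 0.53, 12.7 and 3.88 TPM, a difference of -0.18 (-2.40 to 2.04), where control had 38.8 to 79.8 TPM. Of 22 anterior neural plate and eye field genes tested, 0 were called and the median was -0.08.

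Across the lists, the median differences ran from -1.41 for Hox groups 9 to 13 to 0.75 for axonemal genes. In the plot of list medians, pair 2 lies on the other side of 0 from pairs 1 and 3 for muscle genes, oocyte genes and Hox groups 1 to 4. Pair 3 lies nearest to 0 for the posterior mesoderm, feedback inhibitor, epidermal and axonemal lists.

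**Figure D5:**
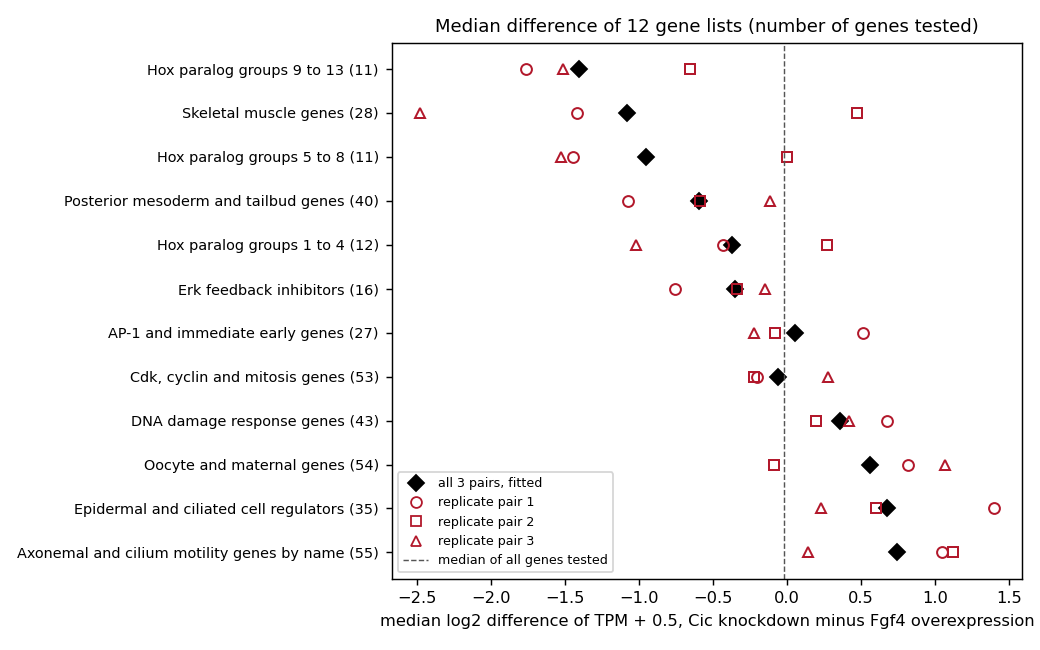
Median log2 difference of TPM + 0.5 (horizontal axis), Cic knockdown minus Fgf4 overexpression, for 12 gene lists with the number of genes tested in brackets. Diamonds are medians of the fitted differences, open symbols are medians within each replicate pair, and the dashed line marks the median of all genes tested (-0.02). Hox groups 9 to 13 lie below 0 in all 3 pairs and the damage response, epidermal and axonemal lists above 0 in all 3, while muscle genes lie at -1.42, 0.47 and -2.48.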

How the data were processed

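Strand-specific poly(A) libraries were sequenced by the authors on the Illumina platform, quantified with Salmon against *X. tropicalis* genome 9.1 and aggregated by gene in Sleuth. The submitters' processing notes also name cutadapt. Tool versions and the annotation release are not given in the sources used here. The authors deposited a gene-level signal for each library that is TPM by its header, but the library sums differ (871757 to 1162165 over the 9 libraries), so the values had been rescaled by factors that are not stated. Counts are not among them. The study gives only a lower bound on the reads per sample, so the depth of each library is unknown.

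Groups and replicate numbers came from the labels. Genes averaging 1.5 TPM or more in either treatment entered a two-sided limma 3.58.1 fit (R 4.3.3; lmFit, then eBayes with trend) on log2(TPM + 0.5), with treatment and replicate number as factors. It had 2 residual degrees of freedom and 4.52 from the prior. Batch plus treatment and the limits follow the study's Methods. Its filter is on control or treatment, and here the same TPM minimum was applied to the treatment means and not to control. The study sets 1.75 on its effect size, which may equal a 2.24-fold limit on the ratio used here. Across genes, libraries of the same number deviated together from their group means, with correlations of 0.47, 0.38 and 0.56. The mean over the other pairings was -0.22. On the first principal component only replicate 3 stood apart, at 80.3 (Fgf4) and 61.2 (Cic knockdown) against -49.1 to -18.8. The correlations do not separate such a shared shift from a pairing, so they cannot show that libraries 1 and 2 are rightly paired. Replicate number was taken as the embryo batch. The labels do not say that replicates are separate clutches, so p measures the spread between these samples.

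Data were simulated from the fitted model itself, with independent normal noise of the variances that the fit had estimated. On these data the fit recovered 42.0% of genes changed by 1 on the log2 scale and 87.2% of those changed by 2. It called 103 of 13411 unchanged genes. The simulation takes the model as true, so it does not test whether the model suits the deposited values. The genes named are *fgf4*, *cic*, genes that the study names for RNA-seq, the 12 called genes per direction with a symbol, the same sign in all pairs and the smallest p, called members of the lists and other members of a described list. A gene that this rule names is not reported here. The comparison and its lists were chosen with earlier results of these data known. Gene names are those of the table, and no coordinates or sequences were used.

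The alternatives tried were pseudocounts of 0.1 and 1, no replicate block, a filter of 5 TPM or none, a fit of all 9 libraries, a constant prior, 3 other scalings, an adjusted p limit of 0.05, a stricter fold limit and leaving out each replicate number.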

Additional observations from a re-analysis of the deposited data

How the results depend on the processing

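The total of 159 calls became 91 without the replicate block (79 shared), 292 in a fit of all 9 libraries (136 shared), 254 with median-of-ratios scaling (154 shared), 0 at an adjusted p of at most 0.05, and 33 to 606 when a replicate number was left out. Leaving out replicates 1, 2 and 3 gave 33, 606 and 436 calls, with 1 residual degree of freedom, and leaving out a single library is the same fit under the block. Calls higher in Cic knockdown became 241 with all 9 libraries, 206 with median-of-ratios scaling, 0 at an adjusted p of at most 0.05 and 27 to 395 with a replicate left out. Calls higher in Fgf4 became 5 without the replicate block, 51 with all 9 libraries, 11 with libraries rescaled to a common sum, 48 with median-of-ratios scaling, 0 at the adjusted p limit and 6 to 278 with a replicate left out. The share of calls higher in Cic knockdown was 81.1%, and became 94.5% without the replicate block, 93.3% with rescaling to a common sum (which moved the median of all genes from -0.02 to 0.11) and 54.1% without replicate 2. The percentage of Cic knockdown calls with control nearer to Fgf4, 72.9, became 88.4 without the replicate block, 83.6 with no TPM filter, 84.8 with a constant prior and 24.1 to 90.9 with a replicate left out. Among calls higher in Fgf4, control was nearer to Fgf4 in 60.8% without replicate 2. The causes were not tested. Of the 44 named genes that were called, 0 changed direction and 6 kept their call in every setting other than an adjusted p. Among these 6, *zfp36l2.1* and *zfp36l2.2* passed the TPM filter only in Cic knockdown embryos. Of the 27 higher in Cic knockdown, 6 lost the call without the replicate block and 2 with rescaling, and of the 17 higher in Fgf4, 15 and 11 did. Among genes that were not called the direction turned for *fosl1* (-0.11) and *sox17b.1* (0.11) with quantile normalization and for *sox17b.1* (0.12) with rescaling. It also turned for 7 of them when a replicate was left out, where the differences ran from -0.65 to 0.052 for *wnt8a*, -0.36 to 0.34 for *fosl1*, -0.16 to 2.23 for *mixl1*, -0.15 to 0.25 for *sox17b.1*, -0.11 to 0.33 for *sox17b.2*, -0.38 to 0.032 for *otx2* and -1.75 to 0.64 for *rax*. With 3 libraries per treatment, differences of 2-fold were often missed in data simulated from the fitted model itself.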

Other observations

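Among pluripotency and blastula genes, 1 of 28 tested was called higher in Cic knockdown, as were 0.948% of all genes. That gene was *foxi2*, a maternal forkhead factor that activates *foxi1* in *Xenopus* ectoderm. It was at 1.60, 6.39 and 3.42 TPM in the Fgf4 libraries and at 19.1, 9.30 and 22.3 TPM in Cic knockdown libraries, with control at 3.08 to 4.25 TPM, and its call was lost in 4 settings, with a constant prior, with quantile normalization, without replicate 1 and without replicate 3. The groups did not overlap and the difference was 2.09 (0.84 to 3.33). *pou5f3.3*, an Oct4 homologue of the egg, was at 2.80, 28.9 and 5.87 TPM against 47.6, 26.6 and 63.1 TPM, where the second Fgf4 library was above the second Cic knockdown library and the difference of 2.35 (0.61 to 4.097) was not called. *sox2*, a neural plate and pluripotency factor, was lower in Cic knockdown, at 145, 165 and 206 TPM with Fgf4 against 60.5, 109 and 137 TPM. Control held 181 to 239 TPM of *sox2*, and the difference of -0.81 (-1.37 to -0.25) was also not called.

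Of the 129 genes called higher in Cic knockdown embryos, 41 had no gene symbol, and of the 30 called higher in Fgf4 embryos, 7 had none. Among 34 genes of the neural plate and proneural list, 24 neural crest specifiers, 42 Wnt pathway genes, 38 Bmp pathway genes, 23 retinoic acid pathway genes and 28 Notch pathway genes tested, 0 were called by limma in either direction. At an unadjusted p under 0.05 these lists held 3, 3, 6, 2, 1 and 5 genes in that order, where 6.56% of all genes passed. The 5 Notch pathway genes were higher in Fgf4 embryos, where 1.68% of all genes were.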
